A study of Mus musculus with 4 samples.

Results

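Marker genes of 6 kinds of cell other than fibroblasts were examined in primary mouse embryonic fibroblasts (MEFs), connective tissue cells grown out directly from embryos. The markers comprise 10 leukocyte, 10 endothelial, 8 epithelial, 6 neural, 4 erythroid and 4 pluripotency genes. All 42 genes were found by symbol on probe sets annotated with exactly 1 gene, out of 18193 genes so annotated, and each gene was represented by its probe set with the highest mean over the 4 arrays. The groups were 2 independent lines of wild-type MEFs and 2 of RBP2-/- MEFs (RBP2-null below), all at passage 3 and each measured on 1 Affymetrix array. RBP2, now called Kdm5a, is a histone demethylase that acts on a mark of active promoters. The labels name no strain, deleted part of the gene, embryo or litter. The p-values below therefore reflect the scatter among these lines alone. The comparison of genotypes asks which transcripts differ when RBP2 is absent, and the markers show what else each culture may have held.

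A primary culture made from a whole embryo starts as a mixture, in which fibroblasts spread and divide while blood cells, vessel lining, epithelium and nerve cells are mostly lost with passage. Macrophages adhere well to plastic and are a familiar companion of such cultures, whereas nucleated red cell precursors need blood growth factors and rarely persist. Some lineage markers are not strictly confined to their lineage: the filament protein nestin and the simple-epithelial keratins are also made by dividing or stressed mesenchymal cells.

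Signal was read as log2(normalized signal + 9) after quantile normalization. No detection calls were used here, so a coarse limit was drawn from 82 probe sets of olfactory, vomeronasal and taste receptors, which fibroblasts should not express. The limit, the level under which 95% of these probe sets lay, was 6.11 and 5.80 in wild-type lines 1 and 2 and 5.99 and 5.80 in RBP2-null lines 1 and 2. Probe sets differ in how strongly they bind, so a level above the limit is not proof of expression and a level below it is not proof of absence. Wild-type line 1 stood apart, with correlations of 0.935, 0.933 and 0.937 with the other arrays, which correlated with each other at 0.950 to 0.962. Kdm5a itself had log2 signals of 6.72 and 7.65 in wild type, against 6.40 and 6.49 in RBP2-null cells, on its brightest probe set. Its log2 fold change of -0.74 (SE 0.34, limma adjusted p 1.00) did not pass the threshold of 0.05, and was -1.23 without wild-type line 1 and -0.27 without wild-type line 2. The other 4 probe sets in the fit ran from -1.24 to 0.24, and none of its 6 probe sets could be placed relative to the deletion.

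The fibroblast label held in all 4 lines. Of 19 measured fibroblast markers, 17 lay above the limit in all 4 lines, and wild-type line 1 had 17 while each other line had 19. Vim, the mesenchymal intermediate filament, had log2 signals of 13.09, 13.15, 13.20 and 13.29 in wild-type lines 1 and 2 and RBP2-null lines 1 and 2. Col1a2, a chain of type I collagen, had 13.01, 13.02, 12.77 and 12.88 in the same order, which holds for every run of 4 values below. Neither gene differed between lines by more than 0.3 on the log2 scale. Col1a1, the other chain of that collagen, had 12.76, 12.83, 12.72 and 12.60, and the matrix protein fibronectin (Fn1) had 12.996, 12.80, 12.996 and 12.81. The 2 markers below the limit in wild-type line 1 were Pdgfra, a growth factor receptor of mesenchymal cells, and Lum, a matrix proteoglycan.

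The markers of other cells were mostly dim. By line, 13 were highest in wild-type line 1, 12 in wild-type line 2, 10 in RBP2-null line 1 and 7 in RBP2-null line 2, where the shares of all genes were 32.6%, 21.0%, 25.5% and 20.8%. Above the limit lay 14 of 42 in wild-type line 1, 13 in wild-type line 2, 10 in RBP2-null line 1 and 13 in RBP2-null line 2, while over all 18193 genes the shares above the limit in the same lines were 47.4%, 52.3%, 48.9% and 52.2%. Of the 42, 22 were above the limit in none of the lines, against 42.5% of all genes, and 6 were above it in all 4 lines, against 42.7% of all genes. Those 6 were Fcgr2b, Csf1r, Cd14, Epcam, Nes and Map2. Several defining genes were below the limit in every line. The pan-leukocyte phosphatase Ptprc (CD45) had deposited signals of 12.3, 11.2, 3.1 and 4.0, where the median probe set of each array had 22.7, 29.4, 21.5 and 43.7. Pecam1 (CD31), which joins endothelial cells, had 4.2, 4.0, 3.0 and 8.9. Cdh1 (E-cadherin), the adhesion protein of epithelium, had 5.7, 24.6, 12.6 and 10.1, near the array median in wild-type line 2. The pluripotency factor Pou5f1 (Oct4) had 0.5, 1.4, 1.3 and 2.0.

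**Figure D1:**
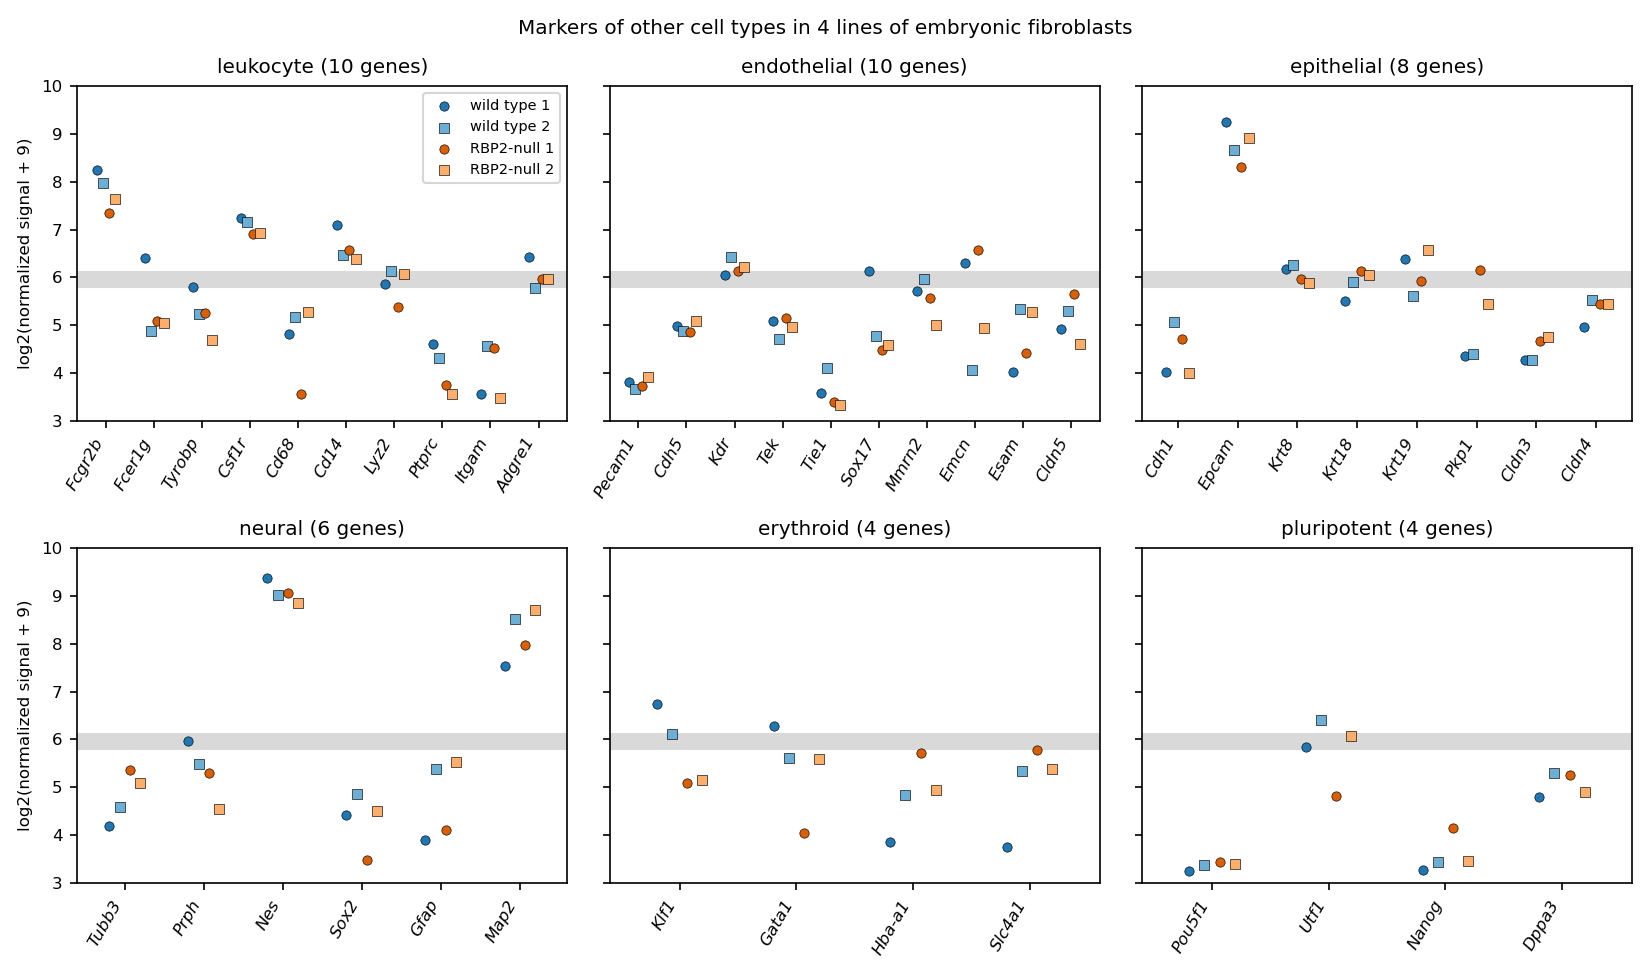
Log2(normalized signal + 9) of the 42 markers, grouped by lineage, with 1 point per line (blue, wild type, and orange, RBP2-null, with circles for line 1 and squares for line 2). The grey band spans the lines' limits of 5.80 to 6.11 from sensory receptor probe sets, and 22 of the 42 genes lie at or under their limit in every line.

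**Figure D2:**
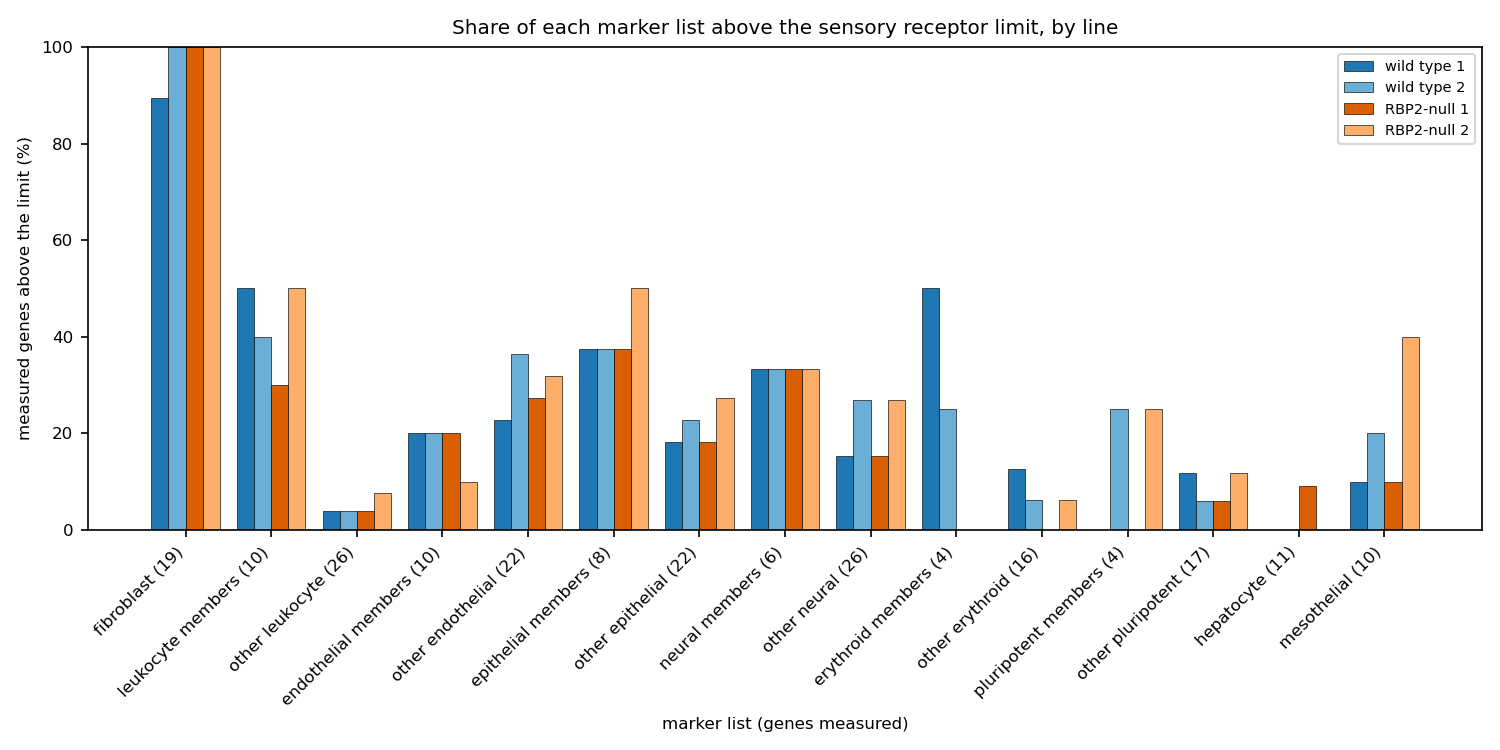
Share of measured genes above the sensory receptor limit in each line, for fibroblast markers, the 6 sets of markers and further genes of the same and other lineages, with the number measured in brackets. Fibroblast markers reach 17 of 19 or 19 of 19 in every line, while no other set exceeds 50% in any line.

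Among leukocyte genes, surface receptors of myeloid cells carried most of the signal. Fcgr2b, an inhibitory receptor for antibodies, had log2 signals of 8.24 and 7.97 in wild type, against 7.35 and 7.64 in RBP2-null cells, so the genotypes did not overlap. Its log2 fold change was -0.60 (SE 0.25, 95% interval -1.17 to -0.044), with a limma adjusted p of 1.00. The other 4 probe sets of Fcgr2b lay below the limit in all 4 lines, so the signal rests on 1 of 5 probe sets. Csf1r, the receptor for the macrophage growth factor, had 7.24 and 7.15 in wild type and 6.90 and 6.93 in RBP2-null cells. A second Csf1r probe set was also above the limit in all lines, where the genotypes differed by -0.089 on the log2 scale. The dimmest of its 3 probe sets was below the limit in all lines and differed by 0.43. Cd14, a co-receptor for bacterial lipopolysaccharide that fibroblasts can also make, had 7.09, 6.47, 6.57 and 6.38, highest in wild-type line 1 and overlapping between genotypes.

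The remaining leukocyte genes were nearer the limit. Fcer1g, a signalling adaptor of Fc receptors, had 6.41 in wild-type line 1 and 4.87, 5.08 and 5.04 in wild-type line 2 and the RBP2-null lines, so wild-type line 1 alone was above the limit. Tyrobp, the related adaptor also called DAP12, had 5.80, 5.24, 5.26 and 4.70 and was below the limit in every line. Adgre1, the macrophage antigen F4/80, had 6.43, 5.78, 5.98 and 5.96 and was above the limit in wild-type line 1 and RBP2-null line 2. These 3 genes were highest in the same line. Lyz2, the lysozyme of myeloid cells, had 5.87, 6.13, 5.39 and 6.08 and was highest in wild-type line 2. The lysosomal protein Cd68 and the integrin Itgam (CD11b) were below the limit in every line, with deposited signals of 1.9 to 44.3 and 2.4 to 15.0.

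Leukocyte markers were highest in wild-type line 1 for 7 of 10 genes, where 32.6% of all genes were highest in that line. As the markers were chosen with earlier results of these data known, this count is not independent evidence. Of the 26 further leukocyte genes 9 were highest in wild-type line 1, near the share of all genes. The summed normalized signal of the 10 leukocyte markers was 849 and 663 in wild type, against 513 and 565 in RBP2-null cells. Without Fcgr2b, Csf1r and Cd14 it was 287, 208, 162 and 188, from genes that were each below the limit in some or all lines. The sum over all 42 markers was also highest in wild-type line 1, with 3150, 2802, 2440 and 2701. So were the endothelial, epithelial and erythroid sums, while the neural and pluripotency sums were highest in wild-type line 2. None of the leukocyte genes in the fit passed the threshold between genotypes, and what set these sums was not tested. Fewer cells of a type, less RNA per cell and unspecific signal cannot be told apart in such bulk samples. Of 26 further leukocyte genes, 24 were below the limit in every line and only the lysosomal protein Laptm5 was above it in all 4, at 6.14, 6.04, 6.25 and 5.88. The scavenger receptor Msr1, with 5.76, 4.14, 5.28 and 5.84, was above it in RBP2-null line 2. The summed signal of these 26 genes was 577, 428, 439 and 439. Whether leukocytes in wild-type line 1 set the higher values there was not tested.

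Endothelial genes gave little signal, and none was above the limit in all 4 lines. Kdr, the main receptor for vascular endothelial growth factor, came nearest with 6.04, 6.43, 6.13 and 6.22, above the limit in each line except wild-type line 1. Sox17, a transcription factor of arterial endothelium and endoderm, had 6.13 in wild-type line 1 and 4.79, 4.49 and 4.59 in wild-type line 2 and the RBP2-null lines. Its other probe set was below the limit in all lines and highest in RBP2-null line 2, with 3.52, 3.44, 3.31 and 4.24. Emcn, a sialomucin of capillary endothelium, had 6.30 and 6.57 in wild-type line 1 and RBP2-null line 1, against 4.06 and 4.94 in the lines numbered 2, so its 2.51 range followed the line number and not the genotype. Esam, an endothelial adhesion molecule, ran the other way at dimmer levels, with 4.03 and 4.42 in the lines numbered 1 and 5.34 and 5.28 in those numbered 2. Mmrn2, an endothelial matrix protein, had 5.72, 5.97, 5.57 and 5.003 on a probe set whose name marks probes that can bind unrelated transcripts. The other Mmrn2 probe sets were below the limit in all lines. Cdh5, Tek, Tie1, Pecam1 and the tight-junction claudin Cldn5 were below the limit in all lines.

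Of 22 further endothelial genes, 14 were below the limit in every line and 5 above it in all 4. The brightest were Flt1, another receptor for vascular endothelial growth factor, with 7.81, 7.79, 8.29 and 7.57, and the transcription factor Fli1 with 6.67, 6.47, 7.09 and 7.05. Eng, a TGF-beta co-receptor also made by mesenchymal cells, had 6.61, 6.44, 6.85 and 6.004, and Egfl7, above the limit in 3 lines, had 6.08, 6.75, 6.11 and 6.57. None of these 4 genes had a line that stood 1 log2 unit above the next.

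Epithelial signal depended on the probe set. Epcam, the epithelial cell adhesion molecule, had log2 signals of 9.25, 8.65, 8.30 and 8.90 on its brightest probe set, whose name marks probes that can bind unrelated transcripts. The other Epcam probe set had 3.43, 3.39, 3.42 and 3.61, so the 2 probe sets of 1 gene disagreed in all 4 lines. Without Epcam the summed epithelial signal was 226 and 243 in wild type, against 297 and 287 in RBP2-null cells. With it the sums were 824, 637, 603 and 757.

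The keratins of simple epithelium lay at the limit. Krt8 had 6.17 and 6.27 in wild type and 5.98 and 5.88 in RBP2-null cells, while its filament partner Krt18 had 5.51 and 5.91 against 6.13 and 6.05. Their log2 fold changes were -0.29 (SE 0.30) and 0.38 (SE 0.32), with 95% intervals that both span 0, and the difference between the partners was not tested. That of Krt18 was 0.195 without wild-type line 1. The Krt8 values are those of its brightest probe set, and its other probe sets were below the limit in all lines. Krt19 had 6.40 and 5.61 against 5.92 and 6.57 and overlapped between genotypes. Pkp1, a desmosomal plaque protein of stratified epithelium, had 4.36 and 4.40 in wild type, against 6.15 and 5.45 in RBP2-null cells. It was above the limit in RBP2-null line 1 alone, and its log2 fold change of 1.42 (SE 0.43, 95% interval 0.44 to 2.40) had a limma adjusted p of 1.00. The adhesion protein Cdh1 and the tight-junction claudins Cldn3 and Cldn4 were below the limit in every line. Of 22 further epithelial genes 16 were below it in every line, and those above it in all 4 were Jup, which also serves junctions outside epithelium, with 8.84, 8.45, 8.56 and 8.48, P-cadherin (Cdh3) with 7.57, 7.97, 7.59 and 7.43, and the transcription factor Elf3 with 6.52, 6.35, 6.28 and 6.56. The basal keratin Krt5 had 6.58, 6.03, 5.71 and 5.85.

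Neural signal came from 2 cytoskeletal genes. Nes, the nestin of progenitor cells, had 9.38, 9.03, 9.05 and 8.85 on its brightest probe set, and a second probe set was above the limit in all lines as well. Map2, a microtubule-associated protein best known from dendrites, had 7.54 and 8.51 in wild type and 7.98 and 8.71 in RBP2-null cells, with the lines numbered 2 above those numbered 1. It was above the limit in all lines on 2 of its 4 probe sets. The neuronal tubulin Tubb3 had 4.18 and 4.59 against 5.37 and 5.09, and Prph, the filament of peripheral neurons, had 5.97 and 5.50 against 5.30 and 4.55. Both were below the limit in every line, as were the progenitor factor Sox2 and the glial filament Gfap. The other Prph probe sets, also below the limit, differed between genotypes by 0.034, 0.72 and -0.82 on the log2 scale. Without Nes and Map2 the summed neural signal was 81.2, 104, 73.0 and 90.4, of sums of 914, 973, 837 and 951.

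Of 26 further neural genes, 19 were below the limit in every line and 4 above it in all 4. Ncam1, an adhesion molecule also present on mesenchyme, had 10.06, 10.16, 10.27 and 9.67. Stmn2, a tubulin-binding protein of growing neurons, had 6.56 and 6.13 in the lines numbered 1 and 7.71 and 7.90 in those numbered 2. Sox10, a factor of neural crest and glia, had 6.998, 6.69, 6.81 and 6.27, and the glutamate transporter Slc1a3, above the limit in the lines numbered 2 only, had 5.57, 6.19, 5.89 and 6.99. The other gene above the limit in all 4 was the neuronal microtubule protein Mapt. Map2, Stmn2 and Slc1a3 had higher signal in both lines numbered 2. Sox10 and the brightest probe set of Nes were higher in both lines numbered 1, and Ncam1 and Mapt followed neither order. Of the 26 genes, 10 were highest in wild-type line 1, 2 in wild-type line 2 and 7 in each RBP2-null line. The share of all genes ordered by line number was not counted.

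**Figure D3:**
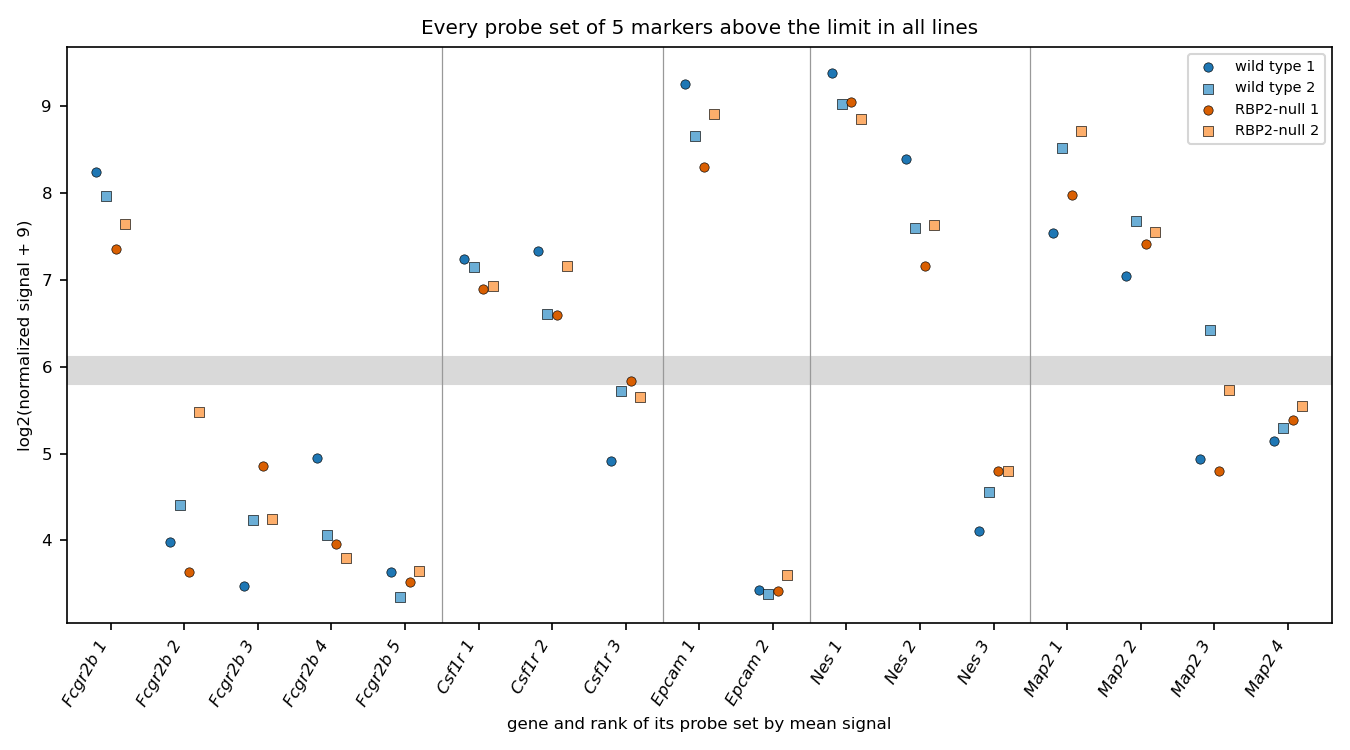
Log2(normalized signal + 9) of every probe set of Fcgr2b, Csf1r, Epcam, Nes and Map2, ordered within a gene by mean signal, with 1 point per line and the grey band of limits as before. Fcgr2b and Epcam rest on 1 probe set each, at 7.35 to 8.24 and 8.30 to 9.25, while their others lie below the limit in every line.

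The erythroid genes were dim, and only 2 regulators passed the limit, Klf1 in both wild-type lines and Gata1 in wild-type line 1 alone. Klf1 and Gata1 are transcription factors that switch on the red cell programme, Hba-a1 encodes an alpha globin chain and Slc4a1 the anion exchanger of the red cell membrane. The stretches of 250 bases before the RefSeq start sites of both regulators (GRCm38.p6, 5′ to 3′ on the gene's strand) are shown because these regulators were the erythroid members above the limit in any line. The Klf1 window is chr8:84901732-84901981 on the plus strand and the Gata1 window chrX:7967911-7968160 on the minus strand. Capitals mark GATAAG, the site bound by GATA factors, and CACACCC, the site bound by Klf1 and related factors, each searched on both strands.
Klf1: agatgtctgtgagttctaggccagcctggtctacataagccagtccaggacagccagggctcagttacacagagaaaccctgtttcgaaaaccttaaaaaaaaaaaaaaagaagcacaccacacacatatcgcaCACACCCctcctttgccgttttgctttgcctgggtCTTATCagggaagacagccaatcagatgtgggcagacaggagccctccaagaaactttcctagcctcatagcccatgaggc
Gata1: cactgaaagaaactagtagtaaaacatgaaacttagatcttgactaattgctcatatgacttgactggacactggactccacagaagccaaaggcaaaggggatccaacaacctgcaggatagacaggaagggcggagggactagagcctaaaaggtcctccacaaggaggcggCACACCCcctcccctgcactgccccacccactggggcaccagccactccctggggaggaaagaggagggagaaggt
The Klf1 window held 1 match to GATAAG, read on the other strand 81 bases before the start, and 1 to CACACCC 116 bases before it. The Gata1 window held 1 match to CACACCC, 76 bases before the start. Of all 32851 windows of this length in the table, 6.55% held GATAAG and 6.93% held CACACCC. The motifs do not overlap each other, and a match describes letters only.

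Klf1 had log2 signals of 6.75 and 6.11 in wild type, both above the limit, against 5.08 and 5.15 in RBP2-null cells, both below it. Its log2 fold change was -1.32 (SE 0.35, 95% interval -2.13 to -0.51), with a limma adjusted p of 1.00, and lay between -1.05 and -1.62 with any 1 array left out. Gata1 had 6.28 and 5.61 in wild type and 4.05 and 5.59 in RBP2-null cells, and the margin between genotypes was only that between 5.61 and 5.59. Its log2 fold change of -1.12 (SE 0.54) was -0.35 without RBP2-null line 1. Hba-a1 and Slc4a1 had estimates above 0, at levels below the limit in every line. Hba-a1 had 3.85 and 4.83 against 5.72 and 4.95, and Slc4a1 had 3.75 and 5.35 against 5.78 and 5.38. Their log2 fold changes of 0.99 (SE 0.53) and 1.03 (SE 0.56) were 0.52 and 0.24 without wild-type line 1. The other probe sets of Slc4a1, too dim for the fit, had 0.38 and -0.67.

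Hba-a1 has a near-identical copy, Hba-a2, whose own probe set had 5.69 and 4.99 in wild type and 3.72 and 4.79 in RBP2-null cells. The direction of alpha globin is therefore uncertain. Of 16 further erythroid genes, globins and membrane proteins among them, 11 had both RBP2-null arrays below both wild-type arrays and 1 had them above. Over all 18193 genes these shares were 16.2% and 13.8%. Hba-a1 and Slc4a1 ran the other way from most of this list. Of the 16, 14 were below the limit in every line. The exceptions were Epor, the erythropoietin receptor, with 6.32, 5.83, 5.66 and 5.65, and Sptb, a spectrin of the red cell skeleton, with 6.51, 5.08, 5.46 and 6.34.

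Of the pluripotency genes, Pou5f1 and Nanog were at the bottom of the scale, and only Utf1, a chromatin factor of embryonic stem cells, passed the limit in any line. Utf1 had 5.84 and 6.41 in wild type and 4.82 and 6.07 in RBP2-null cells, above the limit in both lines numbered 2, and its other 2 probe sets were below the limit in all lines. Nanog had 3.28, 3.44, 4.15 and 3.46. Dppa3, a maternal and germ cell factor, had 4.80, 5.29, 5.27 and 4.89, below the limit but near the median probe set of the arrays. Of 17 further pluripotency genes 14 were below the limit in every line, and Fgf4, Esrrb and Tcl1 passed it in 3, 2 and 1 of the lines, with ranges of 5.72 to 6.28, 5.57 to 6.53 and 5.07 to 5.92.

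Liver cells and mesothelium, the lining of body cavities, can also enter such cultures. Of 11 measured hepatocyte genes 10 were below the limit in every line, and the apolipoprotein Apoa2 passed it in RBP2-null line 1, with 5.07 and 4.53 in wild type and 6.05 and 5.54 in RBP2-null cells. Of 10 mesothelial genes only Ezr, a linker of membrane and actin made by many cells, was above the limit in all 4 lines, with 8.80, 8.23, 8.04 and 8.41. Msln, the surface protein mesothelin, had 5.19, 5.78, 4.12 and 5.99, and Podxl had 5.32, 5.45, 4.002 and 5.91. Both were above the limit in RBP2-null line 2 alone. Upk1b had 5.79, 6.14, 5.75 and 6.08, above it in the lines numbered 2 only.

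Single lines seldom carried a marker. Counted as carried were genes whose highest line was above the limit and at least 1 log2 unit, or 2-fold, above the next line. This held for 2 of the 42, Fcer1g by 1.33 and Sox17 by 1.35, both in wild-type line 1. Of all 18193 genes 0.726% were carried by 1 line, made up of 0.407% in wild-type line 1, 0.0770% in wild-type line 2, 0.0715% in RBP2-null line 1 and 0.170% in RBP2-null line 2. Without wild-type line 1, the markers that met the rule were Emcn in RBP2-null line 1 and Klf1 in wild-type line 2. With no scaling neither gene met the rule, and Krt19 did in RBP2-null line 2.

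No marker passed the threshold between genotypes. The fit kept 31 of the 42, since the others were among the dimmest 40% of probe sets, and 0 of 31 had a limma adjusted p of at most 0.05, against 0.00370% of the 27022 probe sets kept. At an unadjusted p under 0.05 were 3, Klf1, Pkp1 and Fcgr2b, against 2.99% of all kept probe sets. Both RBP2-null arrays lay above both wild-type arrays for 5 of 31 markers and below them for 8, against 14.6% and 14.9% of all kept probe sets. The median log2 fold change of the 31 was -0.14, and that of all kept probe sets 0.0031. A miss of the threshold does not show equal levels, as the median standard error of 0.33 goes with 95% intervals wider than 1 log2 unit for all 31 markers.

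By lineage, the 7 kept leukocyte genes all had estimates below 0, with a median of -0.31, where 50.4% of all kept probe sets had estimates above 0. The 8 kept genes of the further leukocyte list split into 4 above and 4 below, with a median of -0.0021. Those of Fcer1g and Adgre1 turned to 0.19 and 0.20 without wild-type line 1, and that of Lyz2 to 0.084 without RBP2-null line 1. Of the endothelial estimates 5 were above 0 and 3 below (median 0.025), and those of Cdh5, Tek, Esam and Cldn5 changed sign with another scaling of the arrays, and those of Kdr and Emcn with an array left out. Epithelial estimates were above 0 for 4 genes and below for 2 (median 0.22), while the further epithelial list had 4 above and 12 below (median -0.20). The estimate of Krt19 turned to -0.15 without wild-type line 2 and -0.075 without RBP2-null line 2, and that of Cldn4 to -0.081 without wild-type line 1. Neural and erythroid estimates split evenly, with medians of 0.031 and -0.066, and that of Map2 turned to -0.17 without wild-type line 1 and -0.052 without RBP2-null line 2. The 2 kept pluripotency genes were Utf1 with -0.68, which was -0.062 without RBP2-null line 1, and Dppa3 with 0.036. The sign of Dppa3 turned without either line numbered 1 and with another scaling.

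**Figure D4:**
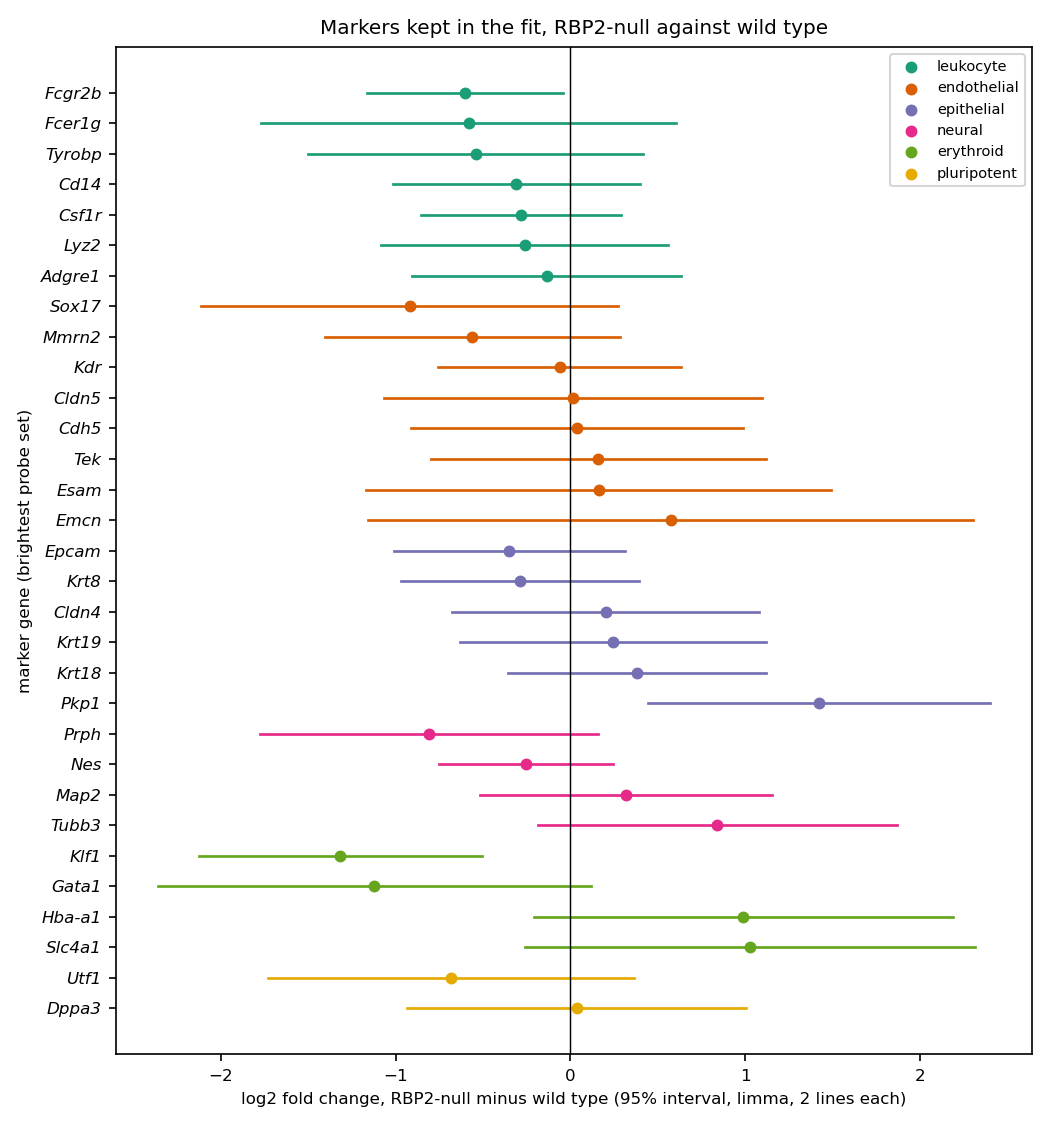
Log2 fold change, RBP2-null minus wild type, of the 31 markers kept in the fit, with 95% intervals from limma and colours by lineage. The intervals of Fcgr2b, Pkp1 and Klf1 leave out 0 before adjustment for the 27022 probe sets tested, and no marker passes after it.

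**Figure D5:**
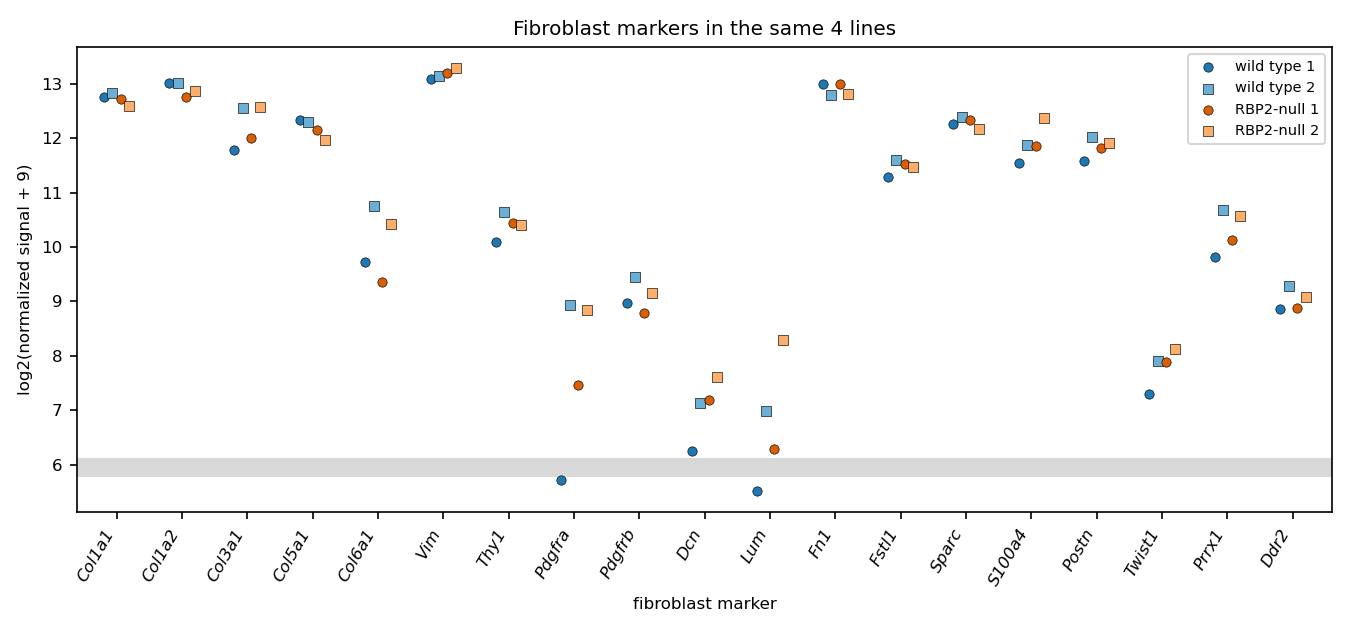
Log2(normalized signal + 9) of 19 fibroblast markers in the same lines, with the grey band of limits. All markers lie above the limit in every line except Pdgfra and Lum in wild-type line 1, at 5.72 and 5.52.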

How the data were processed

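Each of 45101 probe sets has a deposited signal intensity on a linear scale in every array. The authors' summary method, background correction and detection calls are not given in the sources used here. Trimmed means differed 2.46-fold between arrays, so the arrays were quantile normalized with limma 3.58.1 under R 4.3.3. A pseudocount of 9, the rounded 25th percentile, was added before log2, so fold changes of dim genes are understated. After leaving out 64 control probe sets, the upper 60% by mean were kept. Genotypes were compared with lmFit and eBayes with a mean-dependent prior, two-sided, adjusted by Benjamini-Hochberg over 27022 probe sets. With 2 lines a group, 0.333 is the smallest p that exact permutation allows. The number of arrays limits the precision.

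Platform annotation gave 1 symbol for 34945 probe sets, and promoters came from RefSeq, which held entries for 28 of the 42 markers. The members and lists were chosen with earlier results of these data known. All markers are named, and of each further list at most the 4 brightest genes above the limit in any line; Hba-a2 is an addition made after its values were seen, as are Mapt, Pdgfra, Lum and the genes named under other observations. The fit was also run on simulated data with independent errors and with changes placed only in probe sets brighter than the median. That run does not cover changes in dimmer probe sets or an array that stands apart. Alternatives covered pseudocount, filter, scaling, variance model, replicate block, limit, gap, probe set choice and each array left out.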

Additional observations from a re-analysis of the deposited data

How the results depend on the processing

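The count of markers past the threshold was 0 in all 13 alternatives run on it, with the smallest limma adjusted p of a marker at 0.0958 without wild-type line 2 and 0.229 with the replicate block. The count over all probe sets was 1, and it was 0 with no filter, 0 with no scaling, 0 without the mean-dependent prior, 2 with arrays centred on their median, 39 with the replicate block and from 0 to 85 with an array left out. It was 85 without wild-type line 2, 2 without wild-type line 1 and 0 without RBP2-null line 2. The replicate numbers were not taken as pairs: deviations of same-numbered lines correlated at 0.113, but there are only 2 pairs and no source ties the numbers to a litter or day. The count of markers above the limit in all lines was 6 and ran from 4 without suffixed probe sets to 9 at the 90th percentile. The count of markers carried by 1 line was 2, and it was 1 with no scaling, 1 without suffixed probe sets, 0 at the 99th percentile, 0 with a pseudocount of 32, 5 with a 1.5-fold gap and from 2 to 3 with an array left out. Of the 31 kept markers 18 kept the sign of their estimate in all 12 settings, with no scaling and median centring read relative to shifts of 0.38 and 0.18 in the median of all probe sets. The signs that turned did so with an array left out for 13 markers and with another scaling for 5.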

Other observations

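Among 16 further erythroid genes, both RBP2-null arrays lay below both wild-type arrays for 11 and above them for 1, where the shares over all 18193 genes were 16.2% and 13.8%. The genes that follow were chosen after their values were seen. Kel, a red cell surface antigen, had log2 signals of 5.68 and 4.79 in wild type and 3.57 and 3.74 in RBP2-null cells. Rhd, of the Rhesus family, had 5.20 and 5.69 against 4.47 and 4.66, and the embryonic globin Hbb-bh1 had 4.4998 and 4.96 against 3.48 and 3.93. All of these were below the limit in every line, and the list's summed signal was 425, 325, 185 and 278. The members Hba-a1 and Slc4a1 ran the other way.

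Pdgfra had 5.72 in wild-type line 1 against 8.93 in wild-type line 2 and 7.47 and 8.84 in the RBP2-null lines. Its other probe sets had 5.94, 7.27, 5.88 and 7.13, and 5.05, 5.90, 5.27 and 6.66, with the lines numbered 1 below those numbered 2 on all 3. Lum was lowest in wild-type line 1 as well, with 5.52, 6.99, 6.29 and 8.29. Cd34, made by endothelial, blood and some mesenchymal progenitor cells, had 7.30 in RBP2-null line 2 against 5.07, 5.84 and 5.70 in the other lines.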
